A study of Arabidopsis thaliana with 6 samples.

Results

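Nitric oxide (NO) in plants arises largely from nitrite, and its lifetime is set by the proteins that remove it. The 8 genes examined here encode the 3 hemoglobins of Arabidopsis (HB1, HB2 and GLB3), the nitrate reductases NIA1 and NIA2, the nitrite reductase NIR1, the S-nitrosoglutathione reductase GSNOR1 and the chloroplast GTPase NOA1. They were taken by gene identifier from the known genes of nitrate reduction and NO turnover. All 8 were among the 18368 genes with usable values, and all 8 passed the filter of the test, a mean normalized count of at least 10.

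RNA was sequenced from wild-type Col-0 seedlings that were non-vernalized (0v, 3 libraries) or had been vernalized for 4 weeks (4v, 3 libraries). The 0v seedlings were grown at 22 °C to an age of 11 days, and the 4v seedlings spent 7 days at 22 °C followed by 28 days at 5 °C, which made them 35 days old. Both groups carried no mutation or transgene and were raised on vertical agar plates, with a separate plate for each replicate. Age and temperature thus changed together and cannot be told apart, and no source used here states the hour of harvest. With this RNA sequencing, 1 part of its work, the study compared genes induced by prolonged cold with genes induced by low oxygen.

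Nitrate reductase converts nitrate to nitrite in the cytosol with electrons from NADH, and nitrite reductase carries nitrite on to ammonium in the plastid with electrons from ferredoxin. Nitrate reductase can also reduce nitrite to NO, which binds glutathione to form S-nitrosoglutathione, the compound that GSNOR1 breaks down. Class 1 hemoglobins such as HB1 bind oxygen very tightly and turn NO back into nitrate, so that nitrate, nitrite and NO form a cycle in cells that are short of oxygen.

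The regions around the annotated starts of the genes in each like pair (HB1 with HB2, NIA1 with NIA2) are shown because the results compare these genes with each other, and that of GSNOR1 because it alone held the short motif bound by cold-induced CBF factors. Each runs 5′ to 3′ on the strand of its gene from 250 bases before to 50 bases after the annotated start, read from the RefSeq TAIR10.1 genome. Motif matches are in capitals. HB1 (AT2G16060) lies on the minus strand and its window is chr2:6983728-6984027, HB2 (AT3G10520) on the minus strand at chr3:3277881-3278180, and GSNOR1 (AT5G43940) on the plus strand at chr5:17683906-17684205. NIA1 (AT1G77760) lies on the minus strand at chr1:29239435-29239734, and NIA2 (AT1G37130) on the plus strand at chr1:14158202-14158501.
HB1: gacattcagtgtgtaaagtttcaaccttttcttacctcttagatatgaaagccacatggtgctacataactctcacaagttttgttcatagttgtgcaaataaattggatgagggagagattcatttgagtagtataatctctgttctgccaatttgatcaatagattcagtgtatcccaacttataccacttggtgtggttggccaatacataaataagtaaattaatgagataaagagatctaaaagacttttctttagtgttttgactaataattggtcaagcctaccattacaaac
HB2: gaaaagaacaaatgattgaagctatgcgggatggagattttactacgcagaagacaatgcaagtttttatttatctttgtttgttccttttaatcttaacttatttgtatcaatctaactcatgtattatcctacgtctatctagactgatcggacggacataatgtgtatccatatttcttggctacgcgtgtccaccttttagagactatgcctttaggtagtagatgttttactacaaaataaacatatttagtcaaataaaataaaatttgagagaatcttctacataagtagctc
NIA1: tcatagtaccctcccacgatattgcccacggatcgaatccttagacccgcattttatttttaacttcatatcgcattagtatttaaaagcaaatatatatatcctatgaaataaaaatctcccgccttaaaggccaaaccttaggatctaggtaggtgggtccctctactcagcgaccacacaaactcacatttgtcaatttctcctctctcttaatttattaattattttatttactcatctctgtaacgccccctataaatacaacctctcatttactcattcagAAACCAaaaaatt
NIA2: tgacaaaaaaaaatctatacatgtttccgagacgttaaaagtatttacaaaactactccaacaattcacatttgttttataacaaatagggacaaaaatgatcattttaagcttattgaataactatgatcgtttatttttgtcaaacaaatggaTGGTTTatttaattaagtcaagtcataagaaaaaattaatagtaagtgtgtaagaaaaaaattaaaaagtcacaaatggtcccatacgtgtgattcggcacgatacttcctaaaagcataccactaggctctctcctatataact
GSNOR1: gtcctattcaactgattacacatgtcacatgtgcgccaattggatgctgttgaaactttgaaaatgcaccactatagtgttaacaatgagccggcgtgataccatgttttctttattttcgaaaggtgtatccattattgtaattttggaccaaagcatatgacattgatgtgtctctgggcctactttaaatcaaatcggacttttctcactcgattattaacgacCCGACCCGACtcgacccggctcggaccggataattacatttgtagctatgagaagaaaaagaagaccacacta

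4 motifs were searched on both strands of the 8 windows, and of 27443 windows of the same length around the starts of genes. The GT motif of the anaerobic response element (AAACCA), found in 32.0% of all windows, began 28 bases before the start of GLB3, 95 bases before that of NIA2 (on the other strand) and 38 bases after that of NIA1. The CRT/DRE core (CCGAC), the cold-response motif, was in 15.0% of all windows and among the 8 genes only in that of GSNOR1, with matches directly next to each other that began 23 and 18 bases before the start. The G-box (CACGTG, 7.68% of windows) and the evening element (AAATATCT, 5.65%) were in none of the 8 windows. HB1, HB2, NIR1 and NOA1 held none of the 4 sets of letters in this window.

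The reads recovered from the normalized counts of the 18368 genes came to 1645379 to 20005225 per library in 0v and 1636687 to 23141488 in 4v. By these totals, 0v replicate 3 and 4v replicate 2 were the deep libraries of their groups. Replicate 3 of 0v stood apart from the other 0v libraries on the second principal component of all genes (18.3% of the variance), at -74.0 against 33.2 and 19.9. It also differed in clock genes, with 876 normalized counts of TOC1 against 154 and 197 in the other 0v libraries, and 884 to 1042 in 4v. The other deep library, 4v replicate 2, also lay apart on this component, at -29.9 against 28.5 and 22.3 in its group.

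Of the 8 genes, 1 passed the test as higher in 4v (HB1, limma, adjusted p under 0.05 over 16771 genes) and 0 as lower. Of all genes tested, 6.46% were called higher and 6.99% lower, 13.4% in all. At an unadjusted p under 0.05 the limma test gave 4 of the 8 (HB1, GLB3 and GSNOR1 higher, NIA1 lower), against 32.0% of all genes. Among the members, edgeR called HB1 higher and 0 lower (5.64% and 7.17% of all genes), and DESeq2 called HB1 higher and NIA1 lower (6.59% and 8.32%). With limma-voom HB1 and GLB3 were called higher and NIA1 lower (14.9% and 13.8%). The values of the groups did not overlap for 5 of the 8 genes (39.2% of all genes), of which 4 were higher (20.5% of all genes) and 1 was lower (18.7%). The median log2 fold change of the 8 was 0.29 and that of all genes 0.05.

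**Figure D1:**
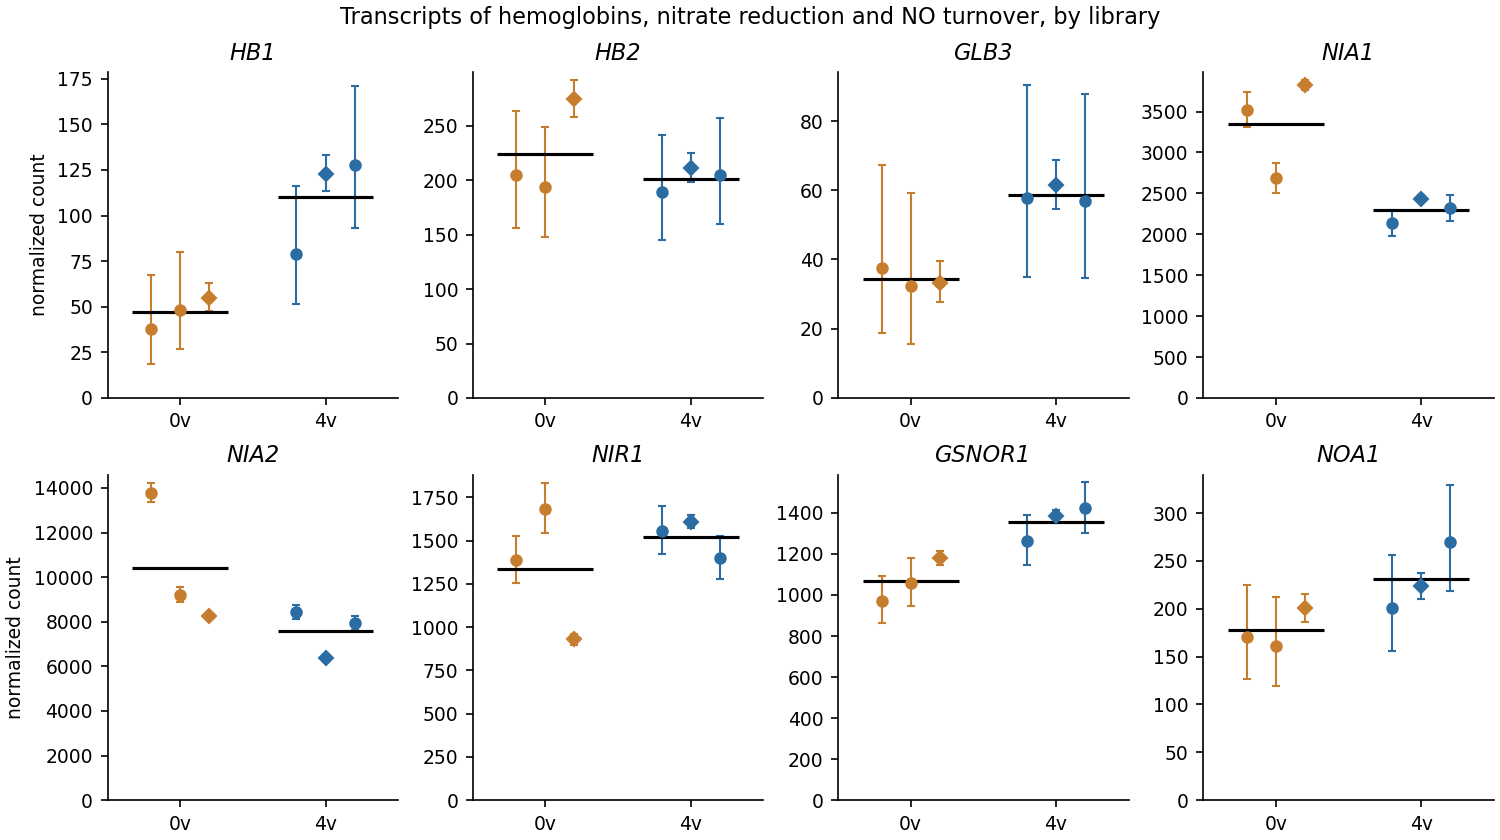
Normalized count (vertical axis, from 0) of each of the 8 genes in the 3 libraries of 0v (orange) and of 4v (blue), with 95% Poisson intervals of the read count as bars and the group mean as a black line. Diamonds are the deep libraries, and HB1 lay between 37.5 and 55.0 in 0v and between 79.2 and 128 in 4v.

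Among the hemoglobins the class 1 gene rose. HB1 (chr2:6982531-6983777) had normalized counts of 37.5, 48.4 and 55.0 in the 0v libraries and of 79.2, 123 and 128 in the 4v libraries. Every 4v library was above every 0v library. The mean went from 47.0 ± 8.81 to 110.0 ± 26.8 (SD, n = 3), a log2 fold change of 1.15 (SE 0.27, 95% interval 0.52 to 1.77, limma adjusted p = 0.0339). A normalized count is the number of reads divided by the size factor of its library, and in the shallow libraries HB1 rested on 11 and 15 reads in 0v and on 26 and 45 in 4v. In the deep libraries it had 209 reads in 0v (95% Poisson interval of the normalized count 47.8 to 63.0) and 607 in 4v (113 to 133). These intervals cover counting error only and not the spread between samples.

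The direction of the HB1 change was the same in all 20 alternative analyses, with log2 fold changes from 0.99 to 1.36, but the call was lost in 6 of them. 5 of the 6 were fits with fewer libraries. In limma fits without 0v replicate 1, 0v replicate 2, 4v replicate 2 or 4v replicate 3 the adjusted p was 0.0882, 0.0713, 0.121 and 0.116, and in the 4 shallow libraries alone it was 0.101.

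HB2 (chr3:3276163-3277930) encodes the class 2 hemoglobin, whose affinity for oxygen is lower and whose transcript was first described as responsive to low temperature. Its normalized counts were 205, 194 and 275 in 0v and 189, 211 and 204 in 4v. The groups overlapped, and the highest value was that of 0v replicate 3. The log2 fold change was -0.14 (SE 0.18, 95% interval -0.55 to 0.28, limma adjusted p = 0.629), 0.016 without that library and -0.23 without 0v replicate 2.

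GLB3 (chr4:15765112-15767106) encodes the truncated, class 3 hemoglobin and was the least abundant of the 8 per length. It had normalized counts of 37.5, 32.3 and 33.2 in 0v and 57.9, 61.4 and 56.8 in 4v, so the groups did not overlap. The replicates lay closer together than the counting error of the shallow libraries. Its log2 fold change of 0.71 (SE 0.23, 95% interval 0.17 to 1.25) did not pass the test (limma adjusted p = 0.0823). It passed with limma-voom (adjusted p = 0.0140), but not with edgeR (adjusted p = 0.103) or DESeq2 (adjusted p = 0.266). Of all genes, limma-voom called 14.9% higher, edgeR 5.64% and DESeq2 6.59%. The GLB3 change was 0.21 when the reads were thinned to the shallowest total in a single random draw. It was 0.66 in the shallow libraries alone and 0.67 to 0.77 with each library left out. In the deep libraries GLB3 had 126 reads in 0v (95% Poisson interval of the normalized count 27.6 to 39.5) and 303 in 4v (54.7 to 68.7). In the shallow libraries it rested on 11 and 10 reads in 0v (18.7 to 67.2 and 15.5 to 59.3). In those of 4v it had 19 and 20 reads (34.8 to 90.4 and 34.7 to 87.7), so these intervals overlapped between the groups.

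The 5′ end of GLB3 shares 58 bases with AT4G32680 on the other strand, and without a stated strand setting reads from this stretch cannot be told apart. The neighbour went the other way, at 109, 80.7 and 103 normalized counts in 0v and 94.4, 81.3 and 68.1 in 4v, with a log2 fold change of -0.25 (SE 0.22, limma adjusted p = 0.460). HB1 and HB2 share no stretch of 31 bases with each other or with any other annotated transcript.

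The share of each of the 3 hemoglobins in their summed transcripts did not overlap between the groups, and the shares depend on each other. Shares are relative, so the lower HB2 share in 4v does not show a fall of HB2, whose own counts overlapped. Per kb of exon, HB1 made up 13.7%, 18.0% and 15.4% of the 3 hemoglobins in 0v and 25%, 31.9% and 33.6% in 4v. HB2 made up 74.2% ± 2.48 and 55.7% ± 3.09, and GLB3 10.1% ± 1.93 and 14.1% ± 1.47 (SD, n = 3). The GLB3 shares came closest at 11.8% in 0v replicate 1 (11 GLB3 reads) and 12.9% in 4v replicate 3 (20 GLB3 reads). HB2 remained the most abundant of the 3 in every library, but its level per kb was 4.79 ± 0.74 times that of HB1 in 0v and 1.89 ± 0.42 times in 4v. The summed level was 272 to 361 normalized counts per kb in 0v and 320.3 to 390.4 in 4v, with overlapping groups.

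The HB1 to HB2 ratio was taken within each library, with 4 added to both normalized counts. On the log2 scale it was -2.33, -1.91 and -2.24 in 0v and -1.21, -0.76 and -0.66 in 4v, higher in each of the 4v libraries. The difference of 1.28 had a two-sided exact permutation p of 0.1, the smallest that 3 libraries against 3 can give, and 0.3 after adjustment over the 3 ratios tested. Leaving out each library gave 1.17 to 1.45, and pseudocounts of 1 and 16 gave 1.33 and 1.12.

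**Figure D2:**
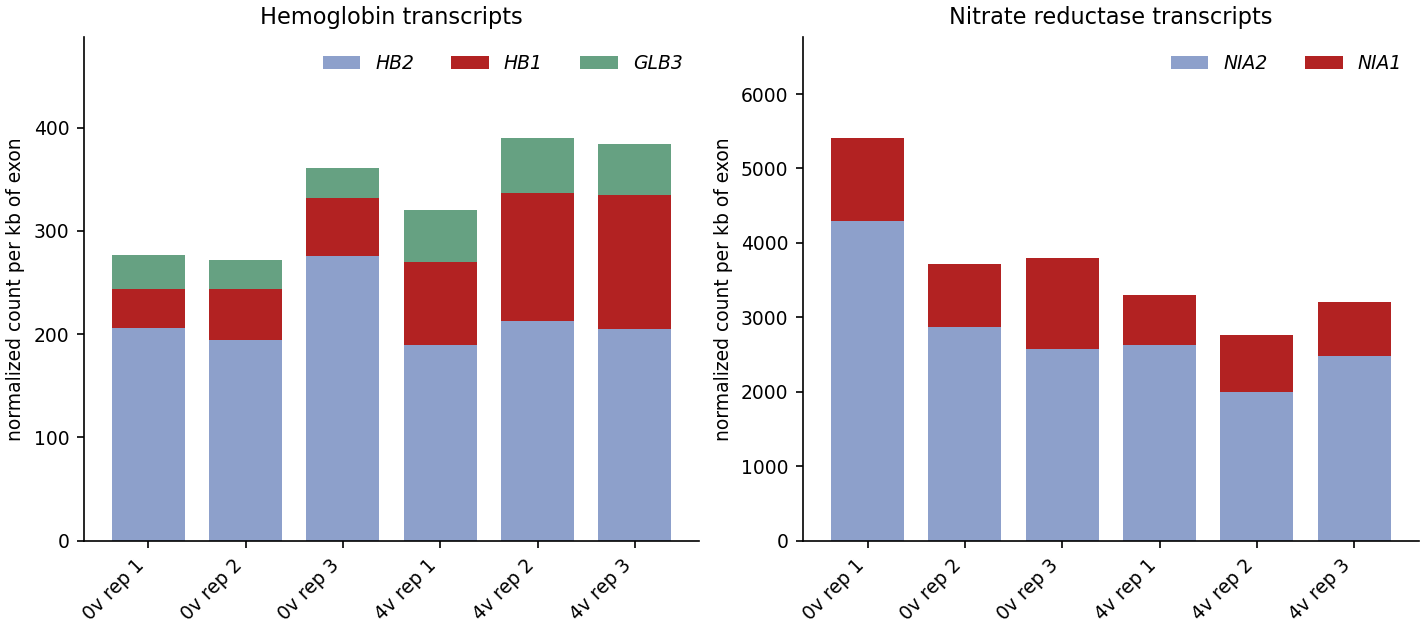
Normalized counts per kb of exon (vertical axis) in each library, stacked by gene, for the 3 hemoglobins (left) and the 2 nitrate reductases (right). The HB1 part of the bar was 13.7% to 18.0% in 0v and 25% to 33.6% in 4v, and the nitrate reductase bars were between 3722 and 5415 in 0v and between 2768 and 3305 in 4v.

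Both nitrate reductase genes had lower means in 4v, and neither passed the test. NIA1 (chr1:29235721-29239484) had normalized counts of 3523, 2687 and 3822 in 0v and 2138, 2436 and 2317 in 4v. Its groups did not overlap, and the 4v libraries lay closer together (SD 150.1) than those of 0v (SD 588). The log2 fold change was -0.53 (SE 0.18, 95% interval -0.94 to -0.12, limma adjusted p = 0.0888). With DESeq2 the adjusted p was 0.0183, with limma-voom 0.0495 and with edgeR 0.0907, and quantile normalization reduced the change to -0.30.

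NIA2 (chr1:14158452-14161938), which encodes the main nitrate reductase of leaves, was the most abundant of the 8 genes. Its normalized counts were 13777, 9198 and 8269 in 0v and 8420, 6397 and 7936 in 4v. The groups overlapped, since 4v replicate 1 was above 0v replicate 3, and 0v replicate 1 was far above all other libraries. The log2 fold change was -0.43 (SE 0.25, 95% interval -1.03 to 0.17, limma adjusted p = 0.286), and it was 0.052 after quantile normalization and -0.21 without 0v replicate 1.

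Summed, the 2 genes took 0.284%, 0.224% and 0.230% of the recovered reads in the 0v libraries and 0.212%, 0.188% and 0.197% in the 4v libraries. These groups did not overlap, but the sum was not tested and was mostly NIA2, whose own groups overlapped. Per kb, the sum was 4309 ± 958 in 0v and 3094 ± 287 in 4v (SD, n = 3). The ratio of the 4v mean to the 0v mean was 0.72 per kb and 0.81 as a share of reads. The share of NIA1 in the sum was 25.2% ± 6.0 and 23.8% ± 3.77. The log2 ratio of NIA1 to NIA2 was -1.97, -1.77 and -1.11 in 0v and -1.98, -1.39 and -1.77 in 4v, a difference of -0.10 (two-sided exact permutation p = 0.6, and 0.6 after adjustment). Without 0v replicate 3, which had the highest ratio, the difference was 0.16, and without 4v replicate 1 it was 0.035. NIA1 and NIA2 share no stretch of 31 bases, so reads of that length tell them apart.

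NIR1 (chr2:6810395-6812941) had normalized counts of 1386, 1684 and 929 in 0v and 1556, 1610 and 1400 in 4v. The groups overlapped and the lowest value was that of 0v replicate 3. The log2 fold change was 0.23 (SE 0.22, 95% interval -0.30 to 0.76, limma adjusted p = 0.516), and it was -0.0081 without that library, 0.42 without 0v replicate 2 and 0.37 after quantile normalization. Per kb, there were 0.117, 0.206 and 0.112 NIR1 transcripts for each nitrate reductase transcript in 0v and 0.215, 0.265 and 0.199 in 4v. The log2 ratio was higher in 4v by 0.69 with an overlap between 0v replicate 2 and the 4v libraries (two-sided exact permutation p = 0.2, and 0.3 after adjustment).

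The nitrate reductase genes are known to cycle over the day, and clock genes differed both between and within the groups. Of 9 clock genes, 1 passed the test (GI, log2 fold change 1.58, limma adjusted p = 0.0450), while 4 passed without 0v replicate 3 and 0 without 0v replicate 2 or without 1 of the 4v libraries. The count was also 0 with TMM factors, with edgeR and with the replicate block, 2 with limma-voom and with thinned reads, and 3 in the shallow libraries alone. Their summed normalized count was 1639 to 4091 in 0v and 3925 to 4310 in 4v, with the highest 0v value in replicate 3, where PRR5 stood at 894 against 68.3 and 126. The morning gene CCA1 had 331, 184 and 76.6 normalized counts in 0v and 372 to 395 in 4v. PRR9 was listed at 0 in 4v replicate 1. The part of the time of day in the values of NIA1, NIA2 and NIR1 was not tested.

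GSNOR1 (chr5:17684156-17686534) encodes the class III alcohol dehydrogenase that reduces S-nitrosoglutathione. Its normalized counts were 973, 1058 and 1179 in 0v and 1264, 1383 and 1422 in 4v. Each 4v library was above each 0v library. Its log2 fold change of 0.34 (SE 0.13, 95% interval 0.03 to 0.66) did not pass the test (limma adjusted p = 0.129). It lay between 0.28 and 0.48 in the alternatives and passed in none of them, with 0.0535 as the lowest adjusted p. Its 3′ end shares 35 bases with AT5G43950 on the other strand, a gene with only 20.5 to 37.5 normalized counts in the 6 libraries.

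NOA1 (chr3:17483068-17486347), once put forward as an NO synthase and now known as a GTPase of the chloroplast, had normalized counts of 171, 161 and 200.3 in 0v and 201.0, 223 and 270 in 4v. The groups were apart only by the narrow gap between 0v replicate 3 and 4v replicate 1. This was a log2 fold change of 0.37 (SE 0.17, 95% interval -0.04 to 0.78, limma adjusted p = 0.189). Its 3′ end shares 91 bases with AT3G47440 on the other strand, a gene not analysed here.

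**Figure D3:**
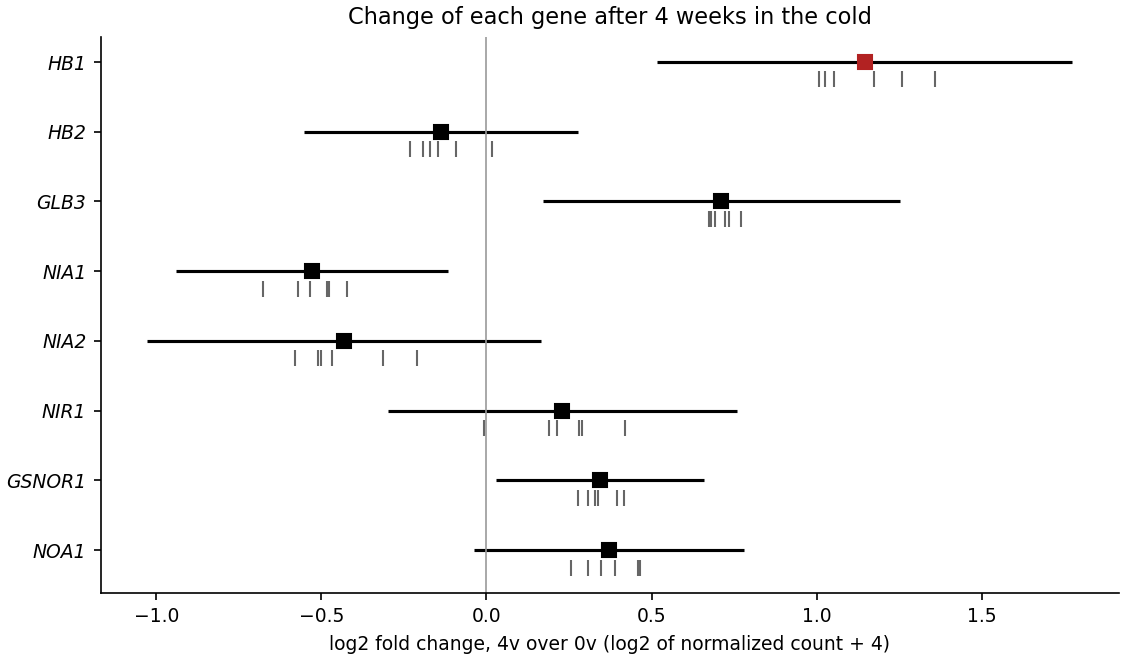
Log2 fold change of each gene, 4v over 0v, on the scale of log2(normalized count + 4) (horizontal axis), with its 95% interval (line) and, below it, the values with each library left out in turn (ticks). Red marks an adjusted p under 0.05, reached by HB1 at 1.15. Ticks of HB2 and NIR1 cross 0.

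Per kb of exon the order of the levels in 0v was NIA2 (3249), NIA1 (1060), GSNOR1 (743), NIR1 (608), HB2 (225), NOA1 (92.6), HB1 (47.5) and GLB3 (29.9). Values are means of the normalized count per kb over 3 libraries. In 4v GSNOR1 (942) came before NIA1 (728), with the next places held by NIR1 (694), HB2 (203), NOA1 (121), HB1 (111) and GLB3 (51.2) after NIA2 (2366). GSNOR1 was below NIA1 in each 0v library (676 to 818 against 852 to 1211) and above it in each 4v library (878 to 988 against 678 to 772). This change of order was not tested, and neither gene passed the test on its own. Neighbours whose ranges overlapped were GSNOR1 and NIR1 in 0v, and NIA1 and NIR1, and NOA1 and HB1, in 4v.

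Genes around these 8 were described by lists of pathway members. Their limma calls at an adjusted p under 0.05 stand beside the 6.46% of all genes called higher and the 6.99% called lower. Counts at an unadjusted limma p under 0.05 stand beside 32% of all genes in either direction. For limma-voom the shares called higher and lower were 14.9% and 13.8%, for edgeR 5.64% and 7.17%, and for DESeq2 6.59% and 8.32%. Of 11 tested genes of nitrate transport, 3 rose and 1 fell, with a median log2 fold change of 0.25. NRT1.2, a low-affinity nitrate importer of the root, had 536, 452 and 435 normalized counts in 0v and 207, 213 and 213 in 4v (log2 fold change -1.15, SE 0.14, limma adjusted p = 0.00527). NRT1.7, which loads nitrate into the phloem of older leaves, rose from 116 ± 54.3 to 358 ± 80.6 (SD, n = 3; log2 fold change 1.66, SE 0.34, adjusted p = 0.0220).

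NRT2.7, a nitrate transporter of the vacuolar membrane, rose from 154, 152 and 184 normalized counts to 359, 801 and 321 (log2 fold change 1.46, SE 0.34, limma adjusted p = 0.0334), and AT2G26690, of the same family as NRT1.7, rose by 1.2 (SE 0.30, adjusted p = 0.0400). The count of rises was 0 in limma fits without 0v replicate 1, without 0v replicate 2 or without 4v replicate 1, and 1 without 4v replicate 2 or without 4v replicate 3. The high-affinity importers NRT2.1 and NRT2.5 had means under 10, with NRT2.1 at 0 to 6.45 normalized counts in 0v and 5.68 to 28.2 in 4v. SLAH3, an anion channel, was listed at 0 in 4v replicate 1, with 52.1 and 76.7 in the other 4v libraries and 126 to 158 in 0v.

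Among 17 genes of nitrate signalling 0 rose and 3 fell, with a median of -0.61. At an unadjusted p under 0.05, 1 gene was higher by limma (TGA1), and edgeR, DESeq2 and limma-voom called 0 higher and 3, 5 and 5 lower. The count of falls was 2 without 4v replicate 1 and 4 without 0v replicate 3. BT1, a nitrate-induced scaffold protein, had the largest change of the list, with 1881 ± 642 normalized counts in 0v and 144 ± 47.1 in 4v (SD, n = 3; log2 fold change -3.68, SE 0.32, limma adjusted p = 0.00204). HHO2, a repressor that responds to nitrate and phosphate, fell from 507 ± 138 to 200.1 ± 30.2 normalized counts (adjusted p = 0.0137), and NRG2, a regulator of nitrate responses, fell by 0.85 (SE 0.14, adjusted p = 0.0120). The LBD repressors, which respond to nitrogen, did not pass, with log2 fold changes of -0.61 for LBD37, -0.20 for LBD38 and -0.76 for LBD39. NLP7, a nitrate sensor and transcription factor, was at -0.43 (adjusted p = 0.296). BT2 was listed at 0 in 0v replicate 2 and 4v replicate 1, and TCP20 in 4 of the 6 libraries.

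The 14 genes of the molybdenum cofactor, siroheme, ferredoxin and NADPH supply held 0 calls in either direction (median -0.10). At an unadjusted p under 0.05, 3 were higher and 1 was lower by limma, and the adjusted calls were 0 by edgeR and DESeq2 and 2 higher by limma-voom. Without 0v replicate 2 the count was 1 higher, and without 0v replicate 3 it was 1 lower. Of 11 further genes of NO and S-nitrosothiol turnover, AT5G44720 rose by 0.94 (SE 0.20, limma adjusted p = 0.0258) and NTRA, a thioredoxin reductase, fell by 0.54 (SE 0.13, adjusted p = 0.0355), with a median of 0.15. The arginase gene ARGAH2 was at -1.88 (SE 0.57, adjusted p = 0.0700) and ARGAH1 at 0.85 (SE 0.25, adjusted p = 0.0677). Without 0v replicate 3 the counts were 2 higher and 2 lower. The NTRA call was lost with the replicate block, after quantile normalization and in each fit that left out another library, and the AT5G44720 call in the shallow libraries alone, without 0v replicate 1 and in each fit that left out a 4v library.

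Of 7 genes that regulate nitrate reductase, 0 passed, and at an unadjusted p under 0.05 the limma test had 3 higher and 2 lower. GRF3, a 14-3-3 protein of the kind that binds phosphorylated nitrate reductase, was at 0.44 (SE 0.12, limma adjusted p = 0.0505), and GRF8 at -0.80 (SE 0.25, adjusted p = 0.0757). MPK6, a kinase that phosphorylates NIA2, was at -0.67 (SE 0.19, adjusted p = 0.0616), with no overlap between the groups. HYH, a bZIP factor that acts on NIA2 in light, was at 1.27 (SE 0.45, adjusted p = 0.102). COP1 was listed at 0 in 0v replicates 1 and 2, at 112 in 0v replicate 3 and at 160 to 308 in 4v. The count of calls was 3 higher and 1 lower with limma-voom, 1 higher and 2 lower with DESeq2 and 0 with edgeR. Without 0v replicate 3 it was 3 higher. It was 1 higher with a pseudocount of 16, a filter at 50, quantile normalization and the shallow libraries alone. Thinned reads on a second scale also gave 1 higher, and depth class as a covariate 1 higher and 1 lower.

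**Figure D4:**
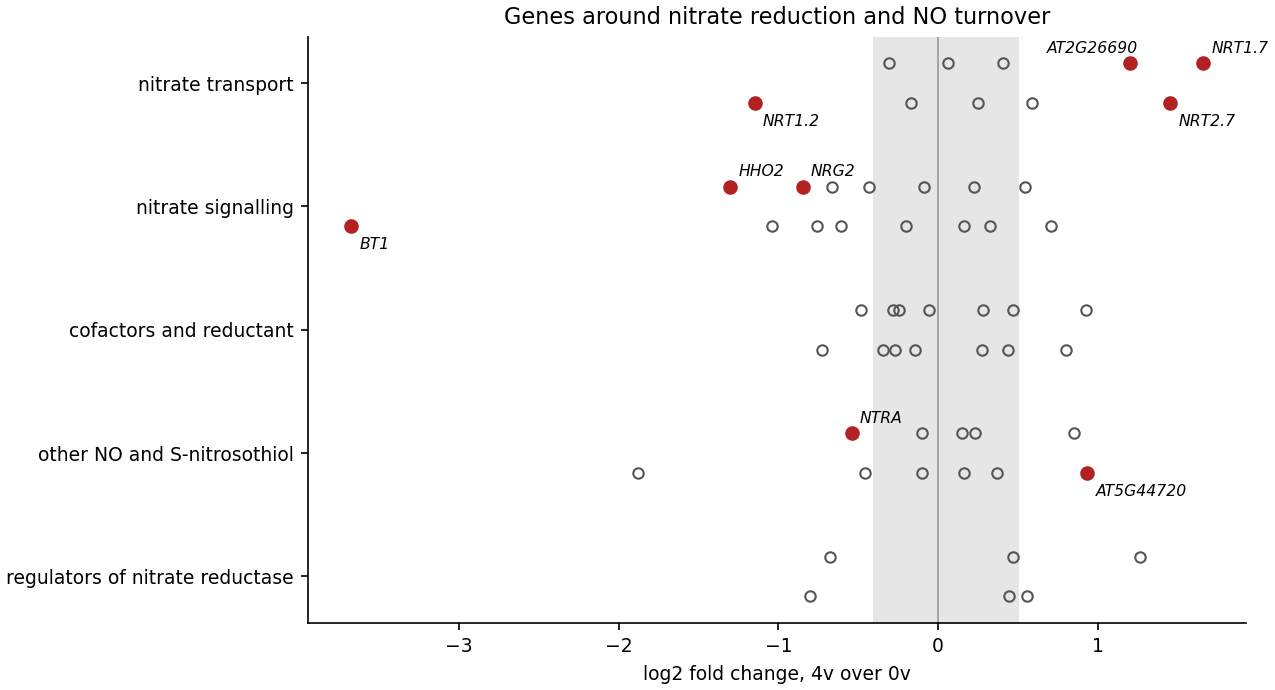
Log2 fold change, 4v over 0v (horizontal axis), of the tested genes of 5 pathway lists (rows, with points set at alternating heights), leaving out genes listed at 0 in any library. Filled red points are named and had an adjusted p under 0.05, from BT1 at -3.68 to NRT1.7 at 1.66, and the grey band spans the middle quartiles of all genes (-0.41 to 0.51).

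Seedlings hold root and shoot, and many of these genes are expressed unequally between them. Fewer cells of a type and less RNA per cell cannot be told apart in such samples. Of 7 tested root markers 2 fell and 0 rose (median -1.28), with 0 higher also at an unadjusted p under 0.05 by limma and with edgeR, DESeq2 and limma-voom, and 1 higher in the shallow libraries alone and without 4v replicate 2. PYK10, a beta-glucosidase of root endoplasmic reticulum bodies, fell from 19488, 19419 and 13468 normalized counts to 7771, 4942 and 7388, and TIP2;3, a root aquaporin, from 130, 67.8 and 36.6 to 3.05, 1.42 and 0. The count of falls was 1 without 0v replicate 1 or 2 and without 4v replicate 2 or 3, 3 without 0v replicate 3 and 4 with limma-voom. The summed level of the 7 was 13997 to 20307 in 0v and 5478 to 8624 in 4v. Most of this sum was PYK10, so it stands for that gene and not for the list. CASP1 and CASP2 were at -1.28 and -1.43 on the log2 scale and did not pass (limma adjusted p = 0.0616 and 0.0598). SHR and SCR, which pattern the root, were at 0.30 and 0.41 on this scale. PHO1, which loads phosphate into the xylem, went furthest against the list, with a mean of 156 ± 31.1 in 0v against 282 ± 114 in 4v (SD, n = 3, a change of 0.77 in log2 with limma adjusted p = 0.170). COBL9, EXPA7, PLT1 and WOX5 had means under 10, and PLT1 and WOX5 were listed at 0 in 0v replicate 1.

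Of 8 shoot markers 2 rose (STM 0.99 and KNAT1 1.27, both of the shoot meristem) and 2 fell (CA1 -1.96 and PSAD2 -1.66, both of photosynthesis), with limma adjusted p of 0.0197, 0.00978, 0.0140 and 0.0106. The summed level, most of it from LHCB1.3, was 232869 to 397461 in 0v and 269465 to 523881 in 4v. No shoot marker was at 0. Without 1 of the 4v libraries the count of rises was 1, and without 4v replicate 1 that of falls was 0. The part of the balance of root and shoot in the values of the 8 genes was not tested.

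The genes most like each member over the 6 libraries were sought among 12013 genes with a mean of at least 50, by the Pearson correlation of log2(normalized count + 4). The points share the 2 groups and the uneven depth, so these values are a description. The 3 highest correlations of each member lay between 0.988 and 0.998. For HB1 they were TSBtype2, a tryptophan synthase beta subunit, AT5G41960 and AT1G52930, and 557 genes had a correlation above 0.9. For GLB3 they were HHP4, ABCI7 and CT-BMY, a beta-amylase of the chloroplast, with 771 genes above 0.9, and for GSNOR1 MEE49, BGLU42 and AT2G43530, with 555.

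NIA1 was most like AT2G15695, ARD1 and FRO1 (606 genes above 0.9) and NIA2 most like EXL5, AT3G07270 and AT2G45590 (204 genes). The 3 genes nearest to HB2 were AT5G23590, RRC1 and OZF2, those nearest to NIR1 were EMB2656, AT1G49740 and ARASP, and those nearest to NOA1 were AT5G13430, EIF2 BETA and NFD5, with 154, 146 and 159 genes above 0.9.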

How the data were processed

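RNA-seq libraries of 6 samples (3 of 0v and 3 of 4v, grouped by the labels) were made with the TruSeq mRNA kit and sequenced as 75-base read pairs. The deposited signal is a gene count that the authors obtained with Kallisto against TAIR10 and divided by 1 DESeq2 size factor per library. Versions, annotation and strand setting are not given in the sources used here. Whole reads were recovered for 100% of the values (tolerance 0.05 of a read), and depth limits the values of low genes, for which Poisson intervals cover counting error only. One gene with displaced values, the authors' fold changes and p-values, and 20 unnamed columns were not used.

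limma 3.58.1 (R 4.3.3, linear model, eBayes with trend, two-sided) was run on log2(normalized count + 4). Genes entered from a mean of 10 upwards, and p-values were adjusted over these 16771 genes by the method of Benjamini and Hochberg. Fold changes are on this scale, which understates those of low genes. Members and lists were chosen with earlier results of these data known. All members were named, and from each list the counts, at most 4 genes by smallest adjusted p and genes that went against the list, whereas a few others (SLAH3, BT2, TCP20, COP1, the LBD genes, NLP7, HYH, TGA1, PRR5, PRR9, CCA1, TOC1, SHR, SCR and the ARGAH genes) were picked once their values had been seen. NRT1.6, NRT2.2, NRT2.4, NRT2.6, NLP8 and RSL4 were not analysed here. 3 ratios within libraries were compared by exact permutation tests.

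As alternatives, the pseudocount was set to 1 or 16, the filter was dropped or raised to 50, and the replicate block, quantile normalization or TMM factors were used. Others were the recovered reads in DESeq2 1.42.0, edgeR 4.0.16 or limma-voom, thinned reads, the shallow libraries alone, depth class as a covariate (both planned with the depths known) and each library left out. The scale of the thinned reads was set after a first version had been seen, and a second scale was added. The test was tried on simulated data. Sequences came from RefSeq TAIR10.1, in which 18295 of 18296 matched genes had the deposited coordinates. A further pattern, written for the nitrate-responsive element, matched no window in the genome and was set aside as possibly misspelt.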

Additional observations from a re-analysis of the deposited data

How the results depend on the processing

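The block gave 481 genes higher and 567 lower, limma-voom 2498 and 2318, and fits with each library left out 260 to 1521 and 400 to 1440, against 1083 and 1172 in the test reported. The number of the 8 genes called higher, 1 in the test reported, was 0 with the replicate block and in the shallow libraries alone, 2 with limma-voom and 0 to 1 with each library left out. The number called lower was 1 with limma-voom and with DESeq2, and 0 to 0 with each library left out. Correlations of the deviations from the group means were 0.07, -0.13 and -0.13 for equal replicate numbers. The highest was 0.27, between the deep libraries, 0v replicate 3 and 4v replicate 2. With few libraries of uneven depth, these values cannot decide whether replicate numbers paired the samples. With the block the HB1 change was 1.15 at a limma adjusted p of 0.0533. Log2 fold changes that changed sign were those of HB2 without 0v replicate 3 (0.016; -0.23 to 0.016 over all libraries left out), NIA2 after quantile normalization (0.052) and NIR1 in the shallow libraries alone (-0.050) and without 0v replicate 3 (-0.0081; -0.0081 to 0.42 over all libraries left out). The change of the log2 NIA1 to NIA2 ratio ran from -0.27 to 0.16 with each library left out, and was 0.16 without 0v replicate 3 and 0.03 without 4v replicate 1. With the same draw of thinned reads on the second scale, added after seeing the data, GLB3 was at 0.18 and HB1 at 1.21. The directions of HB1, GLB3, NIA1, GSNOR1 and NOA1 were the same in all alternatives run. The causes were not tested. GLB3 and HB1, with 10 to 45 reads in the shallow libraries, were the members most limited by depth.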
